A study of Homo sapiens with 21 samples.

Results

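MIR137HG and DNM3OS are long noncoding transcripts whose exons contain microRNA hairpins. Both were picked out by symbol from the 62656 genes of the raw count table because their counts were higher with PFOA or PFOS than in the controls, so they are 2 genes of 62656. The counts come from SH-SY5Y, an established human neuroblastoma cell line, of wild-type genotype, which had been differentiated towards neuron-like cells for 11 days and was then exposed for 24 h to 30 µM of a per- or polyfluoroalkyl substance (PFAS). The 6 substances were a pair of perfluoroalkyl carboxylic acids, PFOA and its longer-chain relative PFDA, a pair of sulfonic acids, PFOS and its longer-chain relative PFDS, and the fluorotelomers 8:2 FTS, a fluorotelomer sulfonic acid, and 8:2 FTOH, a fluorotelomer alcohol. The treatment solutions held 1% methanol, and the methanol content of the control cultures is not given in the sources used here. Each compound and the control had 3 libraries of total RNA depleted of ribosomal RNA, 21 in all. Whether the libraries of a group came from separate cultures is not stated in the sources used here, so each p-value reflects only the spread among these libraries, which may be technical.

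A microRNA is made from a hairpin that the nuclease DROSHA, with its partner DGCR8, cuts out of a longer host transcript. DICER1 then trims it to a short mature strand that guides an Argonaute protein to messenger RNAs through its seed, the bases near its 5′ end. miR-137 is enriched in neurons, has been studied in neuronal differentiation and maturation, and its host locus is a risk locus for schizophrenia. miR-199a and miR-214 come from the antisense strand of DNM3, the gene of the membrane-remodelling GTPase dynamin 3, and are best known from mesenchymal tissue, where the transcription factor TWIST1 acts on their shared host.

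The mature strands that each host can give are shown because the seeds decide which messenger RNAs a microRNA can pair with. Capitals mark the seed, bases 2 to 8, and the sequences and positions are those of RefSeq for GRCh38.p14. MIR137HG carries the hairpins of MIR137 and MIR2682.
hsa-miR-137-3p: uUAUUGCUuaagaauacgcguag
hsa-miR-137-5p: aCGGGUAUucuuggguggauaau
hsa-miR-2682-5p: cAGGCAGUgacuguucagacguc
hsa-miR-2682-3p: cGCCUCUUcagcgcugucuucc
DNM3OS carries the hairpins of MIR199A2 and MIR214.
hsa-miR-199a-5p: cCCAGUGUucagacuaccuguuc
hsa-miR-199a-3p: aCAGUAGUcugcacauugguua
hsa-miR-214-3p: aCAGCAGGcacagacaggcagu
hsa-miR-214-5p: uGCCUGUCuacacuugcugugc
The seed of miR-137-3p occurs in 1 of the 2370 mature microRNA names in that table, its own. The seed of miR-2682-5p is shared with miR-34b-5p and miR-449c-5p, that of miR-199a-3p with miR-199b-3p and miR-3129-5p, and that of miR-214-3p with miR-3619-5p and miR-761. No seed is shared between the microRNAs of MIR137HG and those of DNM3OS. A further microRNA gene, MIR3120, lies on the other strand at the MIR214 hairpin, and its 81-base hairpin is the reverse complement of part of the 110-base MIR214 hairpin.

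Both hosts lie on chromosome 1 (hg38, coordinates of the count table), on the minus strand. MIR137HG (ENSG00000225206) spans chr1:97933474-98049871, with 11 exon blocks that sum to 9610 bases. DPYD (ENSG00000188641, chr1:97077743-97995000), the gene of dihydropyrimidine dehydrogenase, the first enzyme of pyrimidine breakdown, runs on the same strand, overlaps the 3′ part of MIR137HG and shares 494 exon bases with it. This overlap is that of the count table. There 4081 of the 9610 exon bases of MIR137HG lie inside the span of DPYD. In turn 688 of the 7131 exon bases of DPYD lie inside the span of MIR137HG. The RefSeq promoter windows of DPYD, between positions 97920985 and 97921309, lie outside that span. DNM3OS (ENSG00000230630) spans chr1:172138397-172144840, with 3 exon blocks of 3195 bases in all, inside DNM3 (ENSG00000197959, chr1:171817887-172418466) and on the opposite strand, with 0 shared exon bases. Reads that fell on exons of more than 1 gene were not counted, per the file headers, and this applies to 7.35% of the exon bases of MIR137HG and 6.89% of those of DNM3OS. The hairpins of MIR137 (chr1:98046070-98046171), MIR2682 (chr1:98045242-98045351), MIR199A2 (chr1:172144535-172144644), MIR214 (chr1:172138798-172138907) and MIR3120 (chr1:172138808-172138888) lie wholly inside host exons and have 0 counts in each of the 21 libraries. The values below therefore describe the host transcripts, and no mature microRNA was measured.

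The smallest library, 8:2 FTOH replicate 3, held 7680024 counts and the largest, PFOS replicate 1, held 30429746, around a median of 14633793. The 3 controls held 22179910 to 24905803 counts, so all 3 lay above that median. The share of counts from mitochondrial genes was 6.33% in control replicate 3, 6.11% in 8:2 FTOH replicate 3, 5.40% in PFDA replicate 2, 5.24% in PFDS replicate 1 and 3.37% to 4.37% in the other libraries. Markers of the labelled cell were present in the controls, with means of 1146 CPM (counts scaled to the size of the library) of DBH and 705 of HAND2, which mark adrenergic neuroblastoma cells, and 1189 of STMN2 and 820 of MAP2, which mark neurons. Other defining markers were near 0 there, at 0.59 CPM for TH and 1.68 for RBFOX3.

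MIR137HG was an abundant transcript. Over the 21 libraries it had 3003 to 12593 counts per library, and per exon length its mean level of 37.7 RPKM (CPM per kilobase of exon) was the highest of the microRNA host transcripts listed for this work. MIR181A2HG, which hosts a copy of miR-181a and miR-181b, came next at 13.1 RPKM and DNM3OS next at 11.1 RPKM, from 303 to 1299 counts per library. The overlapping genes were lower per exon length, at 10.2 RPKM for DPYD and 3.90 RPKM for DNM3.

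MIR137HG was at 283, 295 and 323 CPM in control replicates 1, 2 and 3. It was at 411, 380 and 385 CPM with PFOA and at 407, 370 and 388 CPM with PFOS, the compounds that chose it. With the longer-chain acids it was at 370, 413 and 378 CPM for PFDA and at 344, 365 and 294 CPM for PFDS. All the libraries of PFOA, PFOS and PFDA lay above the highest control, which 7.45%, 6.62% and 7.92% of tested genes did, while PFDS replicate 3 lay between control replicates 1 and 2 (3.72% of tested genes had all PFDS libraries above). With the fluorotelomers it was at 376, 379 and 347 CPM for 8:2 FTS and at 352, 362 and 388 CPM for 8:2 FTOH, all above the highest control, as were 6.64% and 5.95% of tested genes. In order of their means the groups were PFOA (392 ± 16.5, SD, n = 3), PFOS (388 ± 18.5), PFDA (387 ± 23), 8:2 FTOH (367 ± 18.6), 8:2 FTS (367 ± 18), PFDS (334 ± 36.2) and control (300.3 ± 20.8). Neighbours in this order, PFDS and control included, lay closer together than the larger of their SDs. In these bulk samples more cells that make a transcript and more of it per cell cannot be told apart.

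DNM3OS was about an order of magnitude lower in CPM. Its controls were at 25.7, 27.6 and 30.4 CPM, in the same order of replicates as for MIR137HG. It was at 44.5, 37.4 and 35.4 CPM with PFOA and at 42, 38.5 and 42.3 CPM with PFOS. It was at 32.3, 39.6 and 33 CPM with PFDA and at 40.1, 32.8 and 26.3 CPM with PFDS. PFDS replicate 3 was again the 1 treated library inside the control range. With 8:2 FTS it was at 38.9, 33.7 and 37.1 CPM, and with 8:2 FTOH at 37.5, 33.7 and 39.2 CPM. In order of their means the groups were PFOS (40.9 ± 2.10, SD, n = 3), PFOA (39.1 ± 4.77), 8:2 FTOH (36.8 ± 2.83), 8:2 FTS (36.6 ± 2.67), PFDA (35 ± 4.00), PFDS (33.1 ± 6.91) and control (27.9 ± 2.33), and neighbours again lay within the larger of their SDs.

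**Figure D1:**
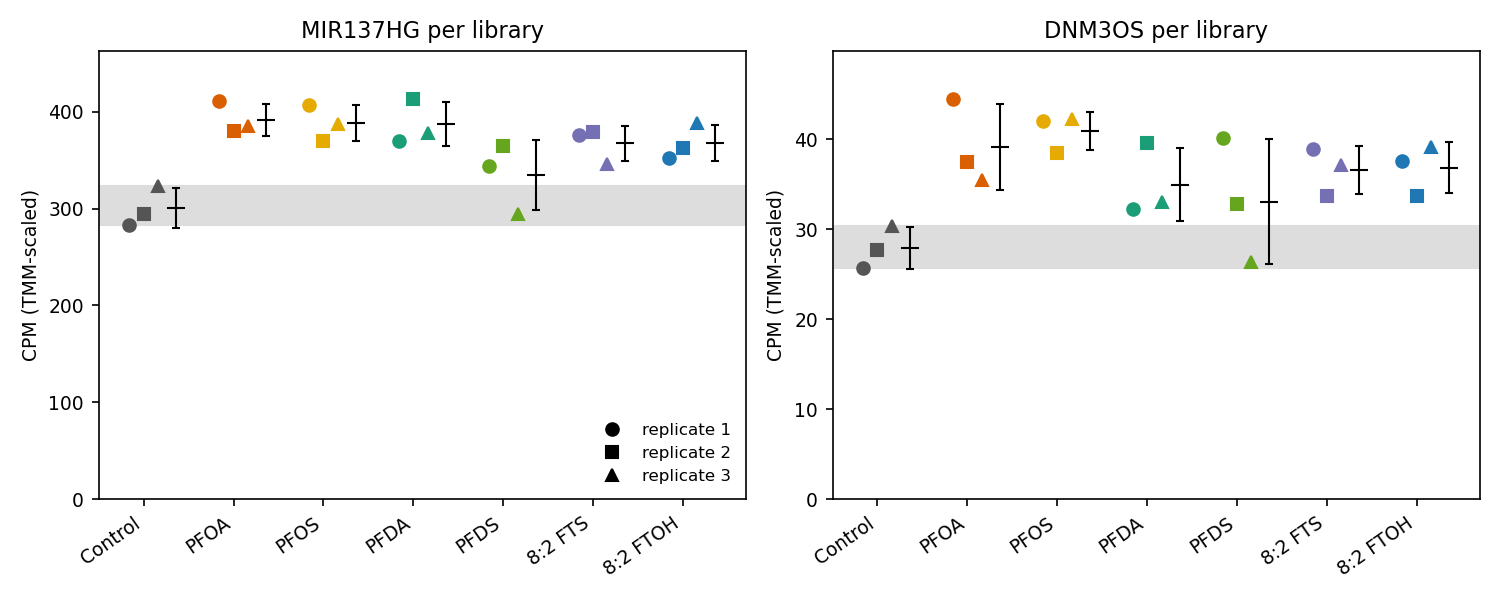
Level of MIR137HG (left) and DNM3OS (right) in CPM in each of the 21 libraries by group, with circles, squares and triangles for replicates 1, 2 and 3, bars for the group mean ± SD (n = 3) and a grey band from the lowest to the highest control. For each transcript 17 of the 18 treated libraries lie above the band, and PFDS replicate 3 lies in it.

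For each host 17 of the 18 treated libraries lay above all 3 controls. Of the 24879 genes tested, 0.494% had at least 17 treated libraries above all controls and 1.13% had at least 17 below. Part of this count was fixed by the choice of the transcripts, since PFOA and PFOS supplied 6 of the 18 libraries. Among the 12 libraries of the 4 other compounds, 11 lay above all controls for each host, against 1.19% of tested genes with at least 11 above and 2.07% with at least 11 below. All these comparisons use the same 3 control libraries as the choice did, and control replicates 1 and 2 were low for both hosts, so they are no independent repeat of it.

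Against the controls MIR137HG was higher by 0.38 with PFOA and by 0.37 with PFOS on the log2 scale, and DNM3OS by 0.48 and 0.55. These values chose the transcripts, so they are given without a test, and the position of the hosts at the threshold of the choice, an adjusted p of 0.05 in edgeR's quasi-likelihood test, restates it and supports nothing. With PFOA 8 genes of 24879 (0.0322%) were past it, 1 of them higher (0.00402%), which is MIR137HG. Just outside came SNORD94, ENSG00000260470 and FANCL, with log2 fold changes of 1.29, 1.55 and 0.38. With PFOS 6 genes (0.0241%) were past it, 2 of them higher (0.00804%), which are SLC7A11, the cystine transporter subunit, at 0.97 and DNM3OS, and just outside came VEGFA at 0.38 and MIR137HG. The sizes were not rare among all tested genes: 12.6% had a log2 fold change with PFOA at or above that of MIR137HG, and 6.06% one with PFOS at or above that of DNM3OS. These shares include genes of low counts, whose values vary more, and genes of a like level were not compared.

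The other 4 compounds were not used in the choice. Against control, MIR137HG was higher by 0.37 with PFDA (SE 0.077, edgeR adjusted p = 0.0972), by 0.15 with PFDS (adjusted p = 0.888), by 0.29 with 8:2 FTS (adjusted p = 0.162) and by 0.29 with 8:2 FTOH (adjusted p = 0.181) on the log2 scale, and passed in none of them. DNM3OS passed in none either, with 0.32 for PFDA (SE 0.112, edgeR adjusted p = 0.434), 0.23 for PFDS (adjusted p = 0.888), 0.39 for 8:2 FTS (adjusted p = 0.230) and 0.39 for 8:2 FTOH (adjusted p = 0.254). The genes that passed were 2 with PFDA (0.00804%), 6 with PFDS (0.0241%), 21 with 8:2 FTS (0.0844%) and 8 with 8:2 FTOH (0.0322%). With the DESeq2 test MIR137HG passed with PFDA (adjusted p = 0.00648), 8:2 FTS (0.0496) and 8:2 FTOH (0.0328), and DNM3OS with none of the 4, where DESeq2 called 47, 51 and 63 genes with PFDA, 8:2 FTS and 8:2 FTOH. Over 14 alternative settings the adjusted p of MIR137HG ran from 0.00423 to 0.987 with PFDA, from 0.0496 to 0.705 with 8:2 FTS and from 0.0328 to 0.587 with 8:2 FTOH.

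The mean of the 4 compounds against control gave 1 value per gene from 12 treated libraries. MIR137HG rose in it by 0.28 on the log2 scale (SE 0.062, edgeR adjusted p = 0.0287), with 11 of 12 libraries above all controls, and was 1 of 80 genes that passed (0.322%), 10 of them higher (0.0402%) and 70 lower (0.281%). DNM3OS was higher by 0.33 (SE 0.090, adjusted p = 0.109) and did not pass. This mean uses the same control libraries as the choice, so the pass of MIR137HG is no independent repeat of it. Without control replicate 1 the adjusted p of MIR137HG became 0.240, without control replicate 2 it became 0.387 and with a fit of only these groups 0.0721, within a range of 0.00246 to 0.387 over 23 alternatives. That of DNM3OS became 0.0132 without PFDS replicate 3 and 0.0181 without the filter on low counts, within a range of 0.0132 to 0.537 over 23 alternatives.

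**Figure D2:**
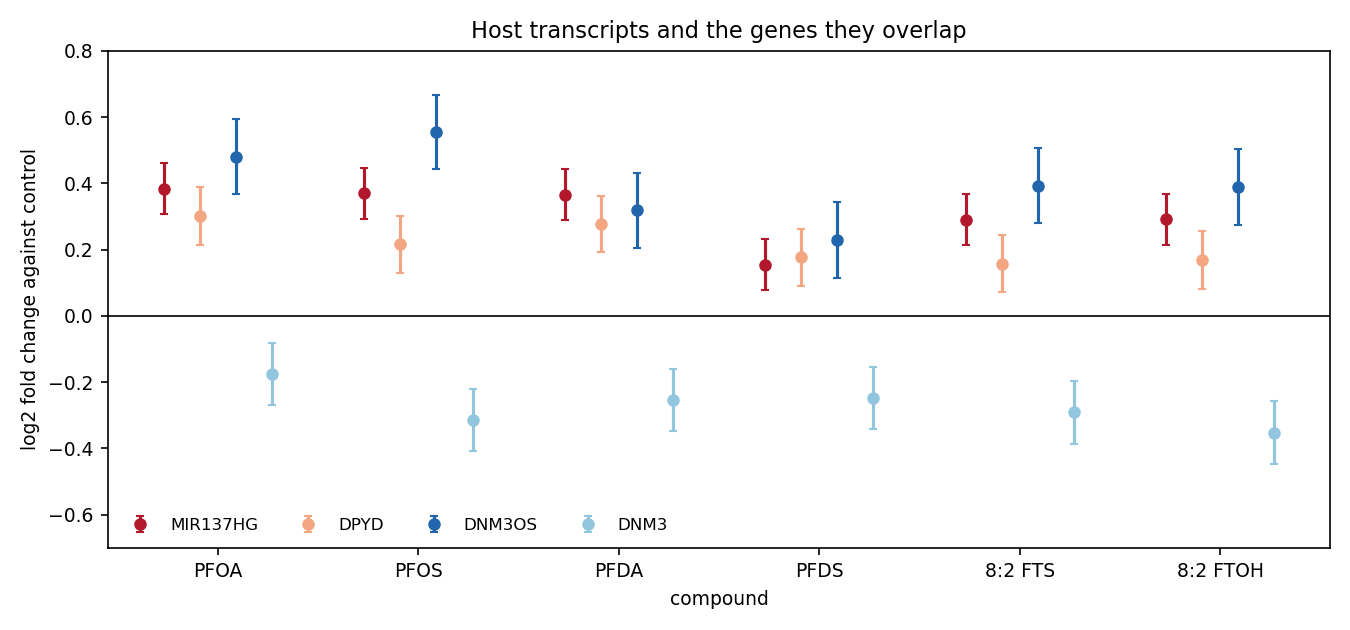
Log2 fold change against control of the host transcripts MIR137HG and DNM3OS and of the genes they overlap, DPYD and DNM3, for each compound (bars: 1 SE of the edgeR fit over 21 libraries, 3 per group, with the same 3 controls throughout). Both hosts and DPYD lie above 0 for all 6 compounds and DNM3 below 0; the values of the hosts with PFOA and PFOS chose them.

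The compounds were compared with each other at the same dose and time in 3 pairs that the choice did not use. PFDS, the sulfonic acid, minus PFDA, the carboxylic acid, gave a log2 difference of -0.21 for MIR137HG (95% interval -0.37 to -0.06, edgeR adjusted p = 0.890 over all genes) and -0.09 for DNM3OS (-0.32 to 0.14, adjusted p = 0.949). Without PFDS replicate 3 the differences were -0.13 and 0.07. Between the fluorotelomers, 8:2 FTS minus 8:2 FTOH, the log2 difference was -0.00 for MIR137HG (-0.16 to 0.16) and 0.00 for DNM3OS (-0.23 to 0.24). The sulfonic acid with the fluorotelomer chain, 8:2 FTS, minus PFDS gave 0.14 (-0.02 to 0.29) and 0.16 (-0.07 to 0.40), and without PFDS replicate 3 gave 0.05 and 0.01. In each of these pairs 0 of 24879 genes passed in edgeR (0.0%) and 0 in DESeq2, with 1390, 811 and 1020 genes at an unadjusted p under 0.05. The intervals are not adjusted for the number of genes. The pairs with PFOA or PFOS are given as values only: MIR137HG differed by -0.02 and DNM3OS by -0.16 for PFDA minus PFOA, and by -0.22 and -0.32 for PFDS minus PFOS.

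DPYD, which shares strand and exon bases with MIR137HG, was at 55.8, 62.8 and 73.3 CPM in the controls. It was at 75.1, 76.2 and 84.7 CPM with PFOA, the compound group with its highest mean. It was at 79.8, 72.6 and 70.1 CPM with PFOS and at 74.3, 82.4 and 76.0 CPM with PFDA. The 9 libraries of PFDS and of both fluorotelomers lay between 65.2 and 76.1 CPM. In all, 9 of 18 treated libraries lay above the highest control, and the share of all genes with as many was not computed. The 17 of MIR137HG were fixed in part by its choice. PFOA and PFDA were the compounds whose 3 libraries all lay above for DPYD, as they did for 7.45% and 7.92% of tested genes. DPYD passed in no comparison with control: with PFOA the log2 fold change was 0.30 (SE 0.086, edgeR adjusted p = 0.181), with the other compounds it ran from 0.16 to 0.28 (adjusted p = 0.350 to 0.886), and for the mean of 4 compounds it was 0.20 (SE 0.069, adjusted p = 0.278). Control replicate 3, the control with the highest mitochondrial share, was the highest control for DPYD as for both hosts. Without it the log2 fold change of DPYD with PFOA was 0.41 (adjusted p = 0.0194, over 14 alternatives 0.0162 to 0.824) and for the mean of 4 compounds 0.31 (adjusted p = 0.0482, over 23 alternatives 0.0482 to 0.871).

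The log2 ratio of MIR137HG to DPYD in CPM was 2.34, 2.23 and 2.14 in control replicates 1 to 3. The group means ran from 2.21 ± 0.17 with PFDS to 2.39 ± 0.07 with PFOS, beside 2.24 ± 0.10 in the controls (SD, n = 3). PFOS, at 2.35, 2.35 and 2.47, was the 1 compound whose 3 libraries all lay above the highest control, and its lowest values exceeded that control by less than the SD of the controls. PFDA, at 2.32, 2.33 and 2.31, lay inside the control range although its MIR137HG level did not. The ratio thus overlapped the controls in 5 of the 6 compounds, where the level of MIR137HG overlapped them in 1. That level had chosen MIR137HG with PFOA and PFOS, so these counts do not stand on a like footing. Whether reads were misassigned between these overlapping genes was not tested.

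DNM3, read from the strand opposite DNM3OS, lay the other way. It was at 59.3, 54.9 and 48.4 CPM in the controls, with control replicate 3 the lowest. It was at 46.5, 50.3 and 47.1 CPM with PFOA, at 43.7, 40.6 and 46.5 CPM with PFOS and at 47.5, 44.7 and 44.2 CPM with PFDA. It was at 46.8, 38 and 51.6 CPM with PFDS, at 41.4, 43.9 and 47.8 CPM with 8:2 FTS and at 43.5, 42.6 and 41.1 CPM with 8:2 FTOH. In all, 16 of 18 treated libraries lay below the lowest control, against 2.24% of tested genes with at least 16 below, and the exceptions were PFOA replicate 2 and PFDS replicate 3. No comparison passed: the log2 fold changes were -0.18 with PFOA (edgeR adjusted p = 0.544), -0.31 with PFOS (0.397) and -0.25 to -0.35 with the other compounds (adjusted p = 0.201 to 0.692). For the mean of 4 compounds DNM3 was at -0.29 (SE 0.073, adjusted p = 0.0716), and the adjusted p fell to 0.0127 without PFDS replicate 3, to 0.0280 without control replicate 3 and to 0.0281 with DESeq2, within a range of 0.0127 to 0.515 over 23 alternatives.

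The log2 ratio of DNM3OS to DNM3 in CPM was -1.20, -0.99 and -0.67 in the controls. It was -0.07, -0.43 and -0.41 with PFOA and -0.06, -0.08 and -0.14 with PFOS. With PFDA it was -0.56, -0.18 and -0.42, with 8:2 FTS -0.09, -0.38 and -0.37, and with 8:2 FTOH -0.21, -0.34 and -0.07. PFDS gave -0.22, -0.21 and -0.97. In linear terms DNM3OS had 0.52 times the CPM of DNM3 in the controls and 0.72 to 0.94 times in the compound groups. PFDS replicate 3 was again the 1 treated library inside the control range. Part of this was fixed by the choice of DNM3OS, and ratios of other gene pairs were not computed as a background. The counting ignored strand although the library kit was stranded, so unspliced DNM3 RNA that crosses DNM3OS exons would be counted as DNM3OS.

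**Figure D3:**
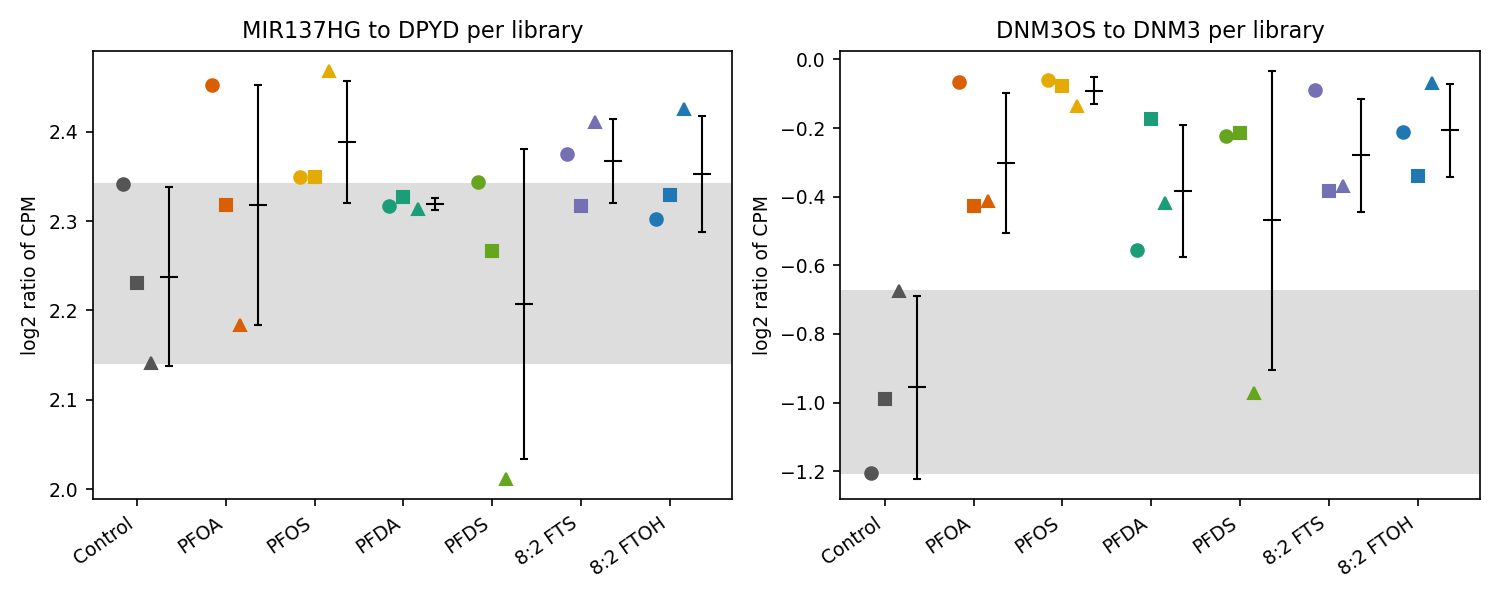
Log2 ratio of the CPM of MIR137HG to that of DPYD (left) and of DNM3OS to that of DNM3 (right) in each library, with replicates marked by circles, squares and triangles in order 1 to 3, group mean ± SD (n = 3) and a grey band over the control range. The left ratios of most groups overlap the controls, while on the right 17 of 18 treated libraries lie above the band.

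Read density per exon base was compared among the genes of each locus. Summed over the 21 libraries MIR137HG had 14.2 counts per exon base and DPYD 3.89. The 7 other counted genes that overlap the span of DPYD but not that of MIR137HG, such as the intronic DPYD-IT1 (0.805), the antisense DPYD-AS1 (0.884) and the pseudogene SEC63P1 (0.940), had 0.624 to 0.974 counts per exon base. At the other locus DNM3OS had 4.13 counts per exon base, DNM3 1.5, and the intronic genes DNM3-IT1 and ENSG00000287336 had 0.341 and 0.299. RNU6-157P and ENSG00000224600, with 27 and 12 counts in all, had 0.252 and 0.034. PIGC, a protein-coding gene that overlaps the end of DNM3 and runs past it, had 2.23. Each host had the highest value at its locus. How much of any of these values came from unspliced RNA of DPYD or DNM3 was not tested. Within MIR137HG, the unnamed genes ENSG00000259946 and ENSG00000288810 had 8.91 and 3.39 counts per exon base, and their log2 fold changes were 0.34 and 0.38 with PFOA, 0.23 and 0.24 with PFOS, 0.29 and 0.36 with PFDA, -0.01 and 0.14 with PFDS, 0.26 and 0.14 with 8:2 FTS and 0.19 and -0.00 with 8:2 FTOH. None of these passed in edgeR (adjusted p = 0.290 to 0.999). None of the 8 genes tested in the span of DPYD passed in edgeR, and these, ENSG00000259946 included, had median log2 fold changes between -0.10 (PFOS) and 0.17 (PFOA).

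**Figure D4:**
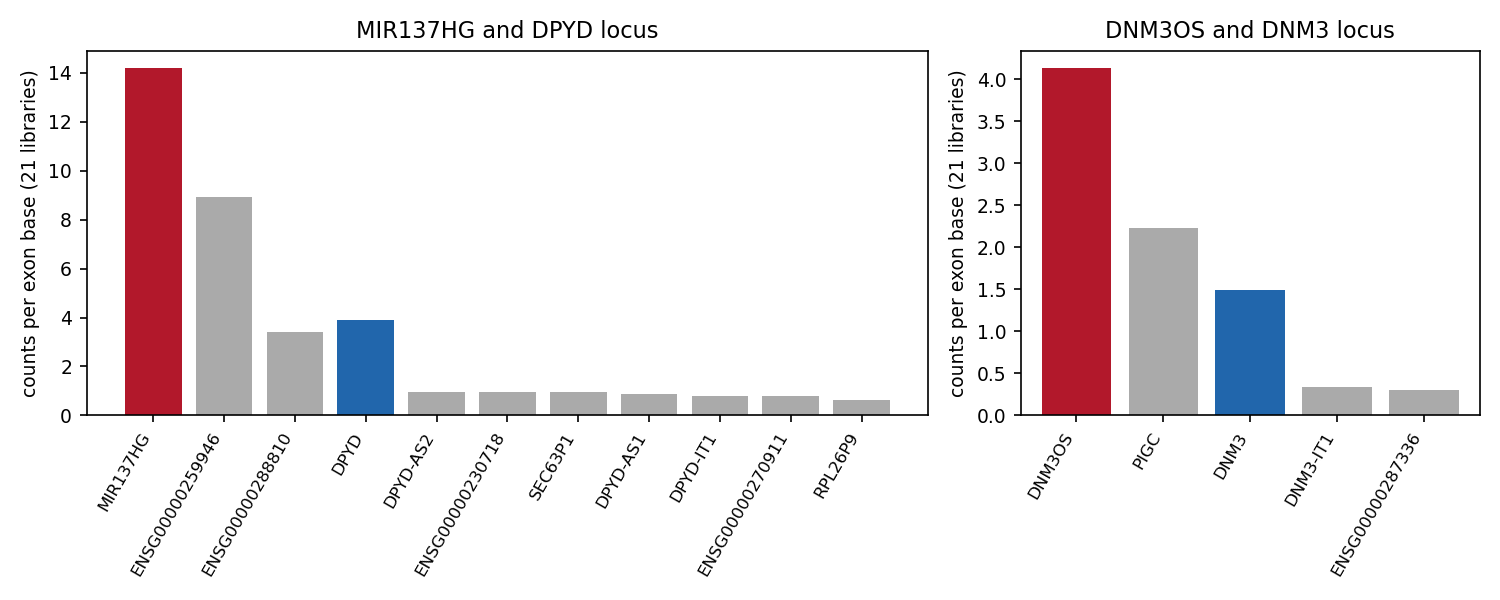
Counts per exon base, summed over 21 libraries, of the genes at the MIR137HG and DPYD locus (left) and the DNM3OS and DNM3 locus (right). Red bars are the hosts, blue bars the genes they overlap and grey bars other genes in the same spans; MIR137HG stands at 14.2 and DNM3OS at 4.13, each the highest bar of its locus, and 2 genes in DNM3 with 27 and 12 counts in all are not drawn.

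Other microRNA host transcripts were compared through a list of 85, of which 84 were in the count table and 46 were tested. Their median log2 fold change was 0.08 with PFOA, 0.09 with PFOS, 0.07 with PFDA, 0.00 with PFDS, 0.08 with 8:2 FTS and 0.15 with 8:2 FTOH, where the median of all genes was 0.00 to 0.01. Values above 0 were found for 32, 31, 31, 23, 29 and 31 of the 46, in the same order of compounds, beside 50.5% to 51.8% of all genes tested. None of the 46 passed in edgeR or in DESeq2 in any of the 6 comparisons with control. In the same order of compounds 7, 4, 7, 5, 5 and 5 had an unadjusted p under 0.05 in edgeR. Of these 6, 3, 7, 4, 4 and 5 were higher. Of the 24879 genes tested, 1389 to 2503 had such a p, with 636 to 1109 of them higher. Of the 46, the 3 with the highest mean CPM are named here, which are not the highest per exon length. MIRLET7BHG, the host of let-7b, had log2 fold changes of 0.25 to 0.38 and MIR29B2CHG, the host of miR-29b-2 and miR-29c, 0.23 to 0.37. MIR99AHG, which contains miR-99a, let-7c and miR-125b-2, had 0.09 to 0.21. All 3 were above 0 with each compound and none passed.

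Long noncoding genes as a class lay slightly above 0. Of 5130 tested long noncoding genes, 3385, 3127, 3354, 2831, 3163 and 3037 had values above 0 in that order of compounds. The median log2 fold change of these long noncoding genes (types of GENCODE 29, a comparison added after the data were seen) was 0.13 with PFOA, 0.08 with PFOS, 0.12 with PFDA, 0.04 with PFDS, 0.09 with 8:2 FTS and 0.08 with 8:2 FTOH. That of 14420 protein-coding genes was between -0.03 and -0.00 for all 6, and turned to 0.02 to 0.04 when libraries were scaled by their total counts alone. With that scaling the medians ran from 0.06 to 0.20 for the long noncoding genes, from 0.03 to 0.20 for the 46 hosts and from 0.03 to 0.08 for all genes. Of 10 tested nuclear-retained long noncoding RNAs, 8, 6, 9, 8, 8 and 7 had values above 0 in the order of compounds just used. These counts stand beside the shares of all genes and of long noncoding genes given above. None of the 10 passed in edgeR or DESeq2, and 0 to 3 had an unadjusted p under 0.05, all of them higher. NEAT1, the scaffold of paraspeckles, had log2 fold changes of 0.38 to 0.81 (SE 0.28 to 0.29). MALAT1, a nuclear speckle RNA, had -0.11 to 0.40 (SE 0.31). KCNQ1OT1 had -0.10 to 0.12 (SE 0.09), above 0 with PFOA and PFDA and below 0 with the other compounds. The part of this common shift in the values of MIR137HG and DNM3OS was not tested.

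**Figure D5:**
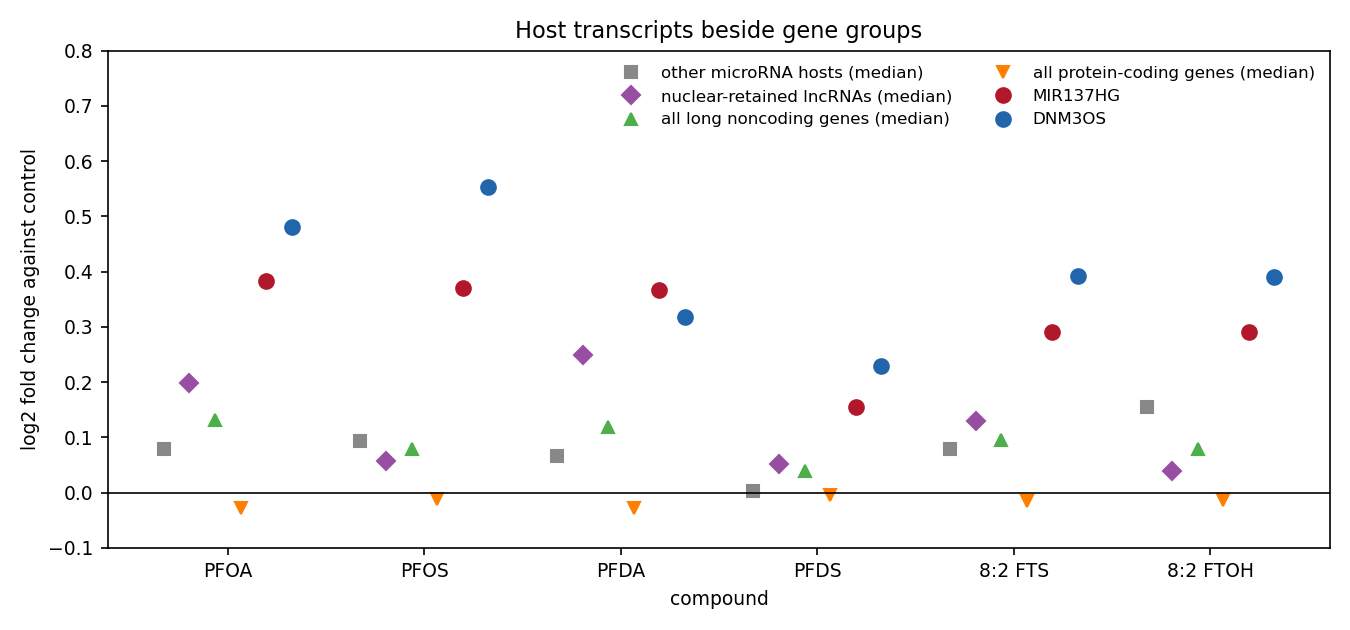
Log2 fold change against control of MIR137HG and DNM3OS (circles) beside the median of 46 other microRNA host transcripts, 10 nuclear-retained long noncoding RNAs, 5130 long noncoding genes and 14420 protein-coding genes, for each compound. The hosts lie above the 4 medians for every compound, and the medians of the 5130 long noncoding genes lie between 0.04 and 0.13. With PFOA and PFOS the place of the hosts was fixed in part by their choice. The other compounds share the controls used in that choice.

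The machinery that turns host transcripts into microRNAs was described by 21 genes, all tested. None passed against control with any compound in edgeR or DESeq2, with 0 to 3 at an unadjusted p under 0.05, all of them lower. Of the 24879 genes tested, 753 to 1394 were lower at that p. The medians were -0.05 to -0.00 but -0.01 to 0.03 with libraries scaled by total counts alone. The helicases DDX5 and DDX17, which assist DROSHA, had log2 fold changes of -0.16 to -0.03 and -0.05 to 0.00, and AGO2, the Argonaute that can cut its targets, had -0.08 to 0.11.

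Messenger RNAs reported as targets were taken as lists from general knowledge. Of 21 tested targets of miR-137, none passed in edgeR or DESeq2 with any compound. In the order of compounds used above, 2, 1, 3, 2, 1 and 2 had an unadjusted p under 0.05 in edgeR. Of these 0, 0, 1, 2, 0 and 0 were higher and the rest lower. Of all 24879 genes tested, 1389 to 2503 had such a p. The medians of the targets were -0.02 to 0.01, or 0.03 to 0.05 with libraries scaled by total counts alone. TCF4, a transcription factor of neuronal development, had -0.02 to 0.07, the histone demethylase KDM5B -0.05 to 0.02, and the cell cycle kinase CDK6 -0.02 to 0.24, its highest value being with PFDS (edgeR adjusted p = 0.629). Of 20 tested targets of miR-199a and miR-214, none passed in either test. In the same order 0, 2, 1, 0, 2 and 3 had an unadjusted p under 0.05 in edgeR. Of these 0, 1, 0, 0, 1 and 0 were higher and the rest lower. Their medians were -0.07 to 0.01, or -0.00 to 0.04 with that scaling. CTNNB1, the gene of beta-catenin, had -0.00 to 0.12. TWIST1, itself listed as a target and known to act on the DNM3OS promoter, stood at 291 ± 14.9 CPM in the controls (SD, n = 3) and had -0.13 to 0.02.

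Markers of other cell states were followed beside the hosts. Of 12 tested mesenchymal markers, a state known from neuroblastoma lines and the usual setting of DNM3OS, none passed in edgeR or DESeq2, 0 to 3 had an unadjusted p under 0.05, all of them lower, and the medians were between -0.21 and -0.03, with PFOS alone turning positive, to 0.01, under scaling by total counts. Their summed level was 420 to 465 CPM in the controls and 364 to 458 CPM in the treated libraries, most of it TWIST1. Next in the controls came THY1, FN1 and LUM, with means of 61.2, 43.9 and 19.2 CPM. PRRX1, POSTN and CCN2 were at 0 there, and the remaining listed markers lay between 0 and the mean of LUM. The 10 neuronal markers had medians of -0.17 to -0.11, with 3 to 6 of them at an unadjusted p under 0.05, all lower, where 753 to 1394 of the 24879 genes tested were lower at that p. GAP43, a growth cone protein, fell by 0.35 on the log2 scale in the mean of 4 compounds (SE 0.067, edgeR adjusted p = 0.0120) and was the 1 marker of these lists that passed there. In DESeq2 GAP43 and NEFM, a neurofilament subunit, passed as lower in that mean. GAP43, NEFM and SYP passed as lower with PFOA, GAP43 with PFDA and 8:2 FTS, and NEFM with PFDS and 8:2 FTOH. Of the 24879 genes tested, DESeq2 called 178 in that mean, 43 of them higher. It called 162 with PFOA, 17 with PFOS, 47 with PFDA, 28 with PFDS, 51 with 8:2 FTS and 63 with 8:2 FTOH. Of these 26, 7, 8, 13, 14 and 16 were higher. Of the 9 adrenergic markers, 1, 4, 2, 6, 4 and 5 had values above 0 with the compounds in the order used above, none passed in edgeR, 0 to 2 had an unadjusted p under 0.05, and GATA3 passed as lower with PFOA in DESeq2. Summed, the neuronal markers stood at 4024 to 4325 CPM in the controls and 3550 to 4170 CPM in the treated libraries, and the 9 adrenergic markers at 3402 to 3810 and 3081 to 4132 CPM. The part of these shifts in the results for the hosts was not tested.

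Which genes varied most like each host was read from log2 CPM over the 21 libraries, among genes with a mean of at least 1 CPM. For MIR137HG, of 19791 genes, the nearest were PZP (Pearson r = 0.91), FANCL (0.88), TRIM66 (0.86), CLIP4 (0.86) and A2M (0.86). PZP and A2M are related protease inhibitors of the alpha-2-macroglobulin family and FANCL is the ubiquitin ligase of the Fanconi anaemia pathway. PZP had 14.6 ± 1.82 CPM in the controls (SD, n = 3) and 16.7 to 21.5 CPM as compound means. For DNM3OS, of 19793 genes, they were CPSF6 (0.84), MIR137HG (0.84), ASNS (0.83), LINC01355 (0.80) and NECTIN1-AS1 (0.79), where CPSF6 is a cleavage and polyadenylation factor and ASNS is asparagine synthetase. By Spearman's rho PZP and FANCL stayed at ranks 1 and 2 for MIR137HG, and the others named ranged from 3 to 142 for their host. Without control replicate 3 and 8:2 FTOH replicate 3, ranks were 1 to 10 for all 10. The points share libraries, scaling and the low controls, so these are descriptions. Among the 18 treated libraries alone the r between MIR137HG and DNM3OS was 0.70 (0.84 over all 21), that between MIR137HG and DPYD 0.51 (0.75 over all 21) and that between DNM3OS and DNM3 -0.18 (-0.56 over all 21). These 18 still include the PFOA and PFOS libraries that chose the hosts. They also include PFDS replicate 3, the lowest treated library for both hosts.

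That both transcripts lay above the same controls was fixed in part by their choice. The promoters of both hosts are shown as a description only. They are RefSeq windows on GRCh38.p14, 300 bases long, around the start site, 5′ to 3′ on the minus strand, with capitals on matches of the E-box CANNTG, the kind of motif that TWIST1 binds.
MIR137HG, chr1:98049644-98049943: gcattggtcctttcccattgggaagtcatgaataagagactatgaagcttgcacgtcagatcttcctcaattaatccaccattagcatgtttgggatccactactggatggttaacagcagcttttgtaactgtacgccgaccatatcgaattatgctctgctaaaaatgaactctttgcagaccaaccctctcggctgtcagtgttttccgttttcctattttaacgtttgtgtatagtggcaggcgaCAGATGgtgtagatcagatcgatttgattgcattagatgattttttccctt
DNM3OS, chr1:172144786-172145085: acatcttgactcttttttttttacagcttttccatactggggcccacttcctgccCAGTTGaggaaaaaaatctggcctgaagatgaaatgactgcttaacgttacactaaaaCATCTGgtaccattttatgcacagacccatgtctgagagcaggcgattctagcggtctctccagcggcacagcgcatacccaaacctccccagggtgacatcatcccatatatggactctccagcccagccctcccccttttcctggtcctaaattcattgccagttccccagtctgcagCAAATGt
The E-box, which reads CANNTG on either strand, has 1 match in the window of MIR137HG and 3 in that of DNM3OS, and 68.7% of 35116 promoters of the same length hold at least 1. Its form CATCTG, searched on both strands and part of the E-box, has 1 match in each window and is found in 14.7% of promoters. CCAAT, on both strands, has 2 matches in MIR137HG and 0 in DNM3OS and is found in 34.6%. The windows hold 42% and 48.7% G and C, lower than most, since 14.9% and 28% of promoters are lower still, while the windows of DNM3 (72.7%) and DPYD (69.7% and 70.3%) are GC-rich.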

How the data were processed

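Total RNA from 21 libraries of differentiated SH-SY5Y cells was sequenced after ribosomal depletion with a stranded kit. The deposited table holds raw counts per gene made with featureCounts 2.0.1, per the file headers, which show no strand option and no option to count reads that overlap several genes. HISAT2, SAMtools, FastQC, MultiQC and the build hg38 are named in the submitters' processing notes. A deposited table of normalized values was not used. MIR137HG, DNM3OS and the gene lists were chosen with earlier results of these data known.

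Of 62656 genes, 62639 matched a symbol. Genes were filtered with filterByExpr, which left 24879, scaled by TMM and fitted over all 21 libraries with edgeR 4.0.16 (quasi-likelihood, robust, in R 4.3.3). P-values were adjusted by Benjamini-Hochberg over the 24879 genes in each of 13 comparisons, with a threshold of 0.05. Intervals are 95% and come from the SE and the degrees of freedom of the fit. CPM are TMM-scaled, and RPKM divide them by the exon length in the count table. Genes of similar pattern are the 5 with the highest Pearson r, and named list genes are mainly those with the highest mean CPM over the 21 libraries. DESeq2 1.42.0, other scalings and filters, fits of fewer libraries and a replicate term were alternatives. The tests were checked on simulated data. Gene class medians, genes in the host spans and counts per exon base were added after the data were seen. Some genes that these rules would name are not reported here.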

Additional observations from a re-analysis of the deposited data

How the results depend on the processing

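For MIR137HG and DNM3OS, 286 of 298 alternative values kept their direction and 12 reversed, all of them differences between compounds. Every alternative value of DPYD and DNM3 kept it. MIR137HG with PFDA (0.37 on the log2 scale, adjusted p = 0.0972) passed with scaling by library size (0.43, adjusted p = 0.0253), without the filter on low counts (0.37, 0.00423), with DESeq2 (0.37, 0.00648), with only the groups compared (0.37, 0.0145) and without control replicate 3 and 8:2 FTOH replicate 3 (0.43, 0.0154), within a range of 0.00423 to 0.987. With DESeq2 it also passed with 8:2 FTS (0.29) and 8:2 FTOH (0.29). For the mean of 4 compounds, MIR137HG no longer passed with only the groups compared (0.27), and DNM3OS passed without the filter (0.33). Leaving out 1 library at a time gave 0.24 to 0.33 for MIR137HG and 0.28 to 0.40 for DNM3OS in that mean, and 0.31 to 0.43 for MIR137HG with PFDA.

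The difference between 8:2 FTS and 8:2 FTOH changed sign for MIR137HG with library size (0.011), without the filter (0.0057) and without control replicate 3 and 8:2 FTOH replicate 3 (0.041), and for DNM3OS with DESeq2 (-0.0012) and with the replicate block (-3.2e-05). With 1 library left out it ran from -0.028 to 0.041 for MIR137HG and from -0.067 to 0.053 for DNM3OS, and that of PFDS minus PFDA for DNM3OS from -0.24 to 0.066. In the controls the mean log2 ratio of DNM3OS to DNM3 was -0.96 in CPM without length, the reverse of its sign per length. That of MIR137HG to DPYD was 2.24 in CPM.

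The number of genes called moved more than the values. In the order PFOA, PFOS, PFDA, PFDS, 8:2 FTS, 8:2 FTOH and mean of 4 compounds it was 8, 6, 2, 6, 21, 8 and 80. Without the filter it was 161, 52, 68, 86, 126, 107 and 249, with DESeq2 162, 17, 47, 28, 51, 63 and 178, and with only the groups compared 82, 48, 60, 2, 50, 31 and 30. With library size it was 4 for PFOA and 13 for PFDS. A minimum fold of 2 left 1 gene with PFOS and 0 in the other 6 comparisons. Without control replicate 3 and 8:2 FTOH replicate 3 it was 169, 27, 25, 26 and 61 for PFOA to 8:2 FTS and 123 for the mean. With 1 library left out it ran from 1 to 136, 2 to 24, 1 to 21, 1 to 100, 4 to 41, 1 to 32 and 4 to 212, the highest mostly without control replicate 3. Of the pairs, PFDS against PFDA had 10 without the filter and 0 to 1 with a library left out, 8:2 FTS against 8:2 FTOH had 6 without the filter and 1 with only the groups compared, and 8:2 FTS against PFDS had 1 without the filter. The cause was not tested.

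The replicate numbers did not pair the libraries: the median correlation of deviations was 0.0016 for the same number (63 pairs) and -0.0056 for other numbers (126), and 7 of 21 libraries were nearest to their own number. With the replicate block 1 gene was called with PFDA. With 3 libraries a group and a lowest total of 7680024 counts, DNM3OS had 303 counts in its poorest library, which limits its precision more than that of MIR137HG.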
